A study of Mus musculus with 6 samples.

Results

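The assembled transcriptomes of mouse oligodendrocyte precursor cells (OPCs) held 122 multi-exon loci that lay between annotated genes. A locus was built from assembled transcripts with 2 or more exons and a summed exon length of 300 nt or more whose span touched no gene body of the GENCODE M21 annotation on either strand. Overlapping spans on the same strand were merged over the 6 libraries, and a locus was counted as found in a library that held at least 1 such qualifying transcript. The 122 loci came from 231 qualifying transcripts, all with a strand. They were a small share of the 14722 multi-exon loci that the same merging gave when genes were included.

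OPCs are dividing glial precursors from which the myelin-forming oligodendrocytes arise. They came from the spinal cord of C57BL/6 pups at postnatal day 0.5 and were pulled down with magnetic beads by A2B5, a surface epitope of glial precursors. The study compared 3 libraries labelled Gde3 KO with 3 labelled WT, and KO and WT below name these labels. The coding gene, listed as Gdpd2, encodes a membrane phosphodiesterase that releases surface proteins from their lipid anchor. Both genotypes had been cultured for 16 h in medium with PDGF and CNTF at 10 ng/mL each, forskolin at 5 µM, sodium pyruvate and the B27 and N2 supplements. Neither the allele nor the deleted exons, nor whether animals were pooled, is given in the sources used here. The labels do not say that the libraries of a group came from separate animals, so the spread behind each p-value may be technical.

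Much of the mammalian genome outside annotated genes gives rise to low-level RNA. Such transcripts include long noncoding RNAs, which can act in the nucleus on chromatin or on neighbouring genes or have no known role, RNA made divergently from the promoters of coding genes, read-through past gene ends, and unannotated first or last exons of known genes. Splicing separates them from contiguous background signal, since an intron has to be seen in spliced reads. Whether a transcript counts as intergenic depends on the gene set it is held against.

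The libraries were not equal, and the library labelled WT replicate 1 stood apart. Transcripts under 300 nt made up 36.8% of its assembly, against 2.16% to 6.61% in the other 5, and its median transcript length was 438 nt, against 1173 to 1830 nt. Its depth, known only relative to the deepest library from coverage per unit of FPKM (fragments scaled to transcript length and library size), was 0.760, against 0.883 to 1. The KO libraries, in order of their number, held Gdpd2 at 0.667, 1.50 and 1.78 FPKM. The WT libraries held it at 0, 2.79 and 2.85 FPKM. WT replicate 1 therefore goes against its label on this gene, though 0 means only that no transcript of 300 nt or more was assembled. With the deleted exons not given, this value does not settle the label. The difference of each recurrent locus is given with and without WT replicate 1. All 20 markers of the oligodendrocyte lineage that were checked, Pdgfra, Olig2 and Sox10 among them, were at 1 FPKM or more in every library. The summed level of 10 microglial and macrophage markers was 93.6 to 174 FPKM in KO and 52.3 to 73.0 in WT, and of these 10, 6 were at 1 FPKM or more in every library. Astrocyte markers (7) summed to 175 to 634 FPKM in KO and 126 to 466 in WT. Neuron markers (10) summed to 127 to 151 in KO and 137 to 248 in WT. Vascular, mural and meningeal markers (9) summed to 48.6 to 108 in KO and 56.2 to 80.1 in WT. Both replicate 1 libraries were lowest in the astrocyte marker Gfap (KO 57.9, WT 32.1, others 178 to 401 FPKM). They were highest in the red cell marker Hbb-bs (KO 102, WT 165, others 21.5 to 50.5 FPKM). The part of these cell types in the differences below was not tested. None of the 75 marker and pathway genes listed was the nearest gene on either side of a locus.

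Sequences at the start of the recurrent loci were taken from RefSeq (build GRCm38.p6), which holds gene models that the GENCODE set lacks. In the set of RefSeq promoters used here, a start on the same strand lay within 1000 nt of the 5′ end of 27 of the 122 loci. That set does not hold every RefSeq start, so the 27 is a lower bound. At L3, for example, RefSeq Robo1 begins at 72027518 and the locus at 72027622, but the set held no promoter there. The promoters shown are those of the 4 loci among the 27 that were found in 4 or more libraries. Each runs from 250 nt before to 50 nt after the RefSeq start. Capitals mark matches to 3 core promoter motifs, searched on both strands by their letters. The TATA box was read as TATAAA. For the CCAAT box its own letters were used. The GC box was read as GGGCGG. No match overlapped another in these 4 windows.
L1, RefSeq D17H6S56E-5, chr17:35000697-35000996, minus strand: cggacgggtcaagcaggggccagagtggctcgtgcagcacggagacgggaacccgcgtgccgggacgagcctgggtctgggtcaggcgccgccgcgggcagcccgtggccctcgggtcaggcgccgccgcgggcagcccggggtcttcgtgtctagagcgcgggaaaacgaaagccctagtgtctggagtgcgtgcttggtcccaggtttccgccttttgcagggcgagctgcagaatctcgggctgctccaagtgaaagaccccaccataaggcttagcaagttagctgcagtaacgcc
L2, RefSeq Gm10509, chr17:21679627-21679926, plus strand: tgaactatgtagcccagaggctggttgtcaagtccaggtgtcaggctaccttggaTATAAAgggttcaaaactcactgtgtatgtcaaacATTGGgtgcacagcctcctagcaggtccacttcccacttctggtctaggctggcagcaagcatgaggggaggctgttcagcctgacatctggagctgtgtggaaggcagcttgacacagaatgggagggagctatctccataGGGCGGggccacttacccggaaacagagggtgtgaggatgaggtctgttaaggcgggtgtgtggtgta
L7, RefSeq Gm46162, chr1:151250491-151250790, minus strand: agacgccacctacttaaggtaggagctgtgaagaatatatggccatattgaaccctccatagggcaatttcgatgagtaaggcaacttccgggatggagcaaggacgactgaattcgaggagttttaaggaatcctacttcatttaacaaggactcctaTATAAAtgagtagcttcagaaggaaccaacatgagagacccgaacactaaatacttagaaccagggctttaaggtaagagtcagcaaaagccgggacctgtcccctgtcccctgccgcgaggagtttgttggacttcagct
L10, RefSeq Gm12610, chr4:89294930-89295229, plus strand: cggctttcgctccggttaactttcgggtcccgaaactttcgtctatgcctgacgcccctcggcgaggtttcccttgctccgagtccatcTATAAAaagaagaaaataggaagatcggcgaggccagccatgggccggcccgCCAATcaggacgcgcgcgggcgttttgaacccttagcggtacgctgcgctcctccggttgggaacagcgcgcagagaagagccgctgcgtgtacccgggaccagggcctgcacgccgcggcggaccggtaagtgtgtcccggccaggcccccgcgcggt

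The promoters of L1 and L10 were rich in CG, with 29 and 37 CG dinucleotides in 300 nt, against a median of 7 over the 32851 RefSeq promoters of the same length. Those of L2 and L7 held 3 and 9. G and C made up 67% and 64.7% of the L1 and L10 promoters and 54% and 46.7% of those of L2 and L7, with a median of 52.7% over all promoters. TATAAA occurred in L2, L7 and L10, where 13.6% of all promoters hold it on either strand. Each motif was counted anywhere in the 300 nt, and its distance from the start was not used. Whether any match works as a promoter element was not tested. CCAAT occurred in L2 and L10 (37.4% of all promoters), and GGGCGG in L2 (35.7% of all promoters). None of the 3 motifs was matched in the L1 window. The assembled 5′ end lay 350 nt after the RefSeq start of the window shown at L1 and 84 nt after it at L2. At L7 it lay 301 nt before that start and at L10 501 nt before it. The windows of L7 and L10 therefore lie inside the merged span of the locus. The start used at L7, 151250540, is not the outermost, since RefSeq extends Gm46162 to 151251324, beyond the 5′ end of L7 at 151250841. At L1 too RefSeq extends D17H6S56E-5 to 35000774, beyond the start used, 35000746.

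Most loci were seen once. Of the 122 loci, 75 (61.5%) were found in 1 library, 18 in 2, 19 in 3, 5 in 4, 4 in 5 and 1 in all 6. KO replicates 1, 2 and 3 held 34, 35 and 60 loci, and WT replicates 1, 2 and 3 held 4, 37 and 44. KO replicate 3 was the highest and WT replicate 1 by far the lowest. Loci seen nowhere else numbered 12, 13 and 23 in the KO libraries and 1, 12 and 14 in the WT libraries. The mean was 43 loci in KO and 28.3 in WT, a difference of 14.7 that did not pass an exact two-sided permutation test (p = 0.6, where 0.1 is the smallest p that 3 against 3 can give). Without WT replicate 1 the WT mean was 40.5 and the difference 2.5. The same pattern held as a share of each library's multi-exon transcripts, of which qualifying transcripts were 0.148% to 0.286% in the 5 other libraries and 0.0173% in WT replicate 1.

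**Figure D1:**
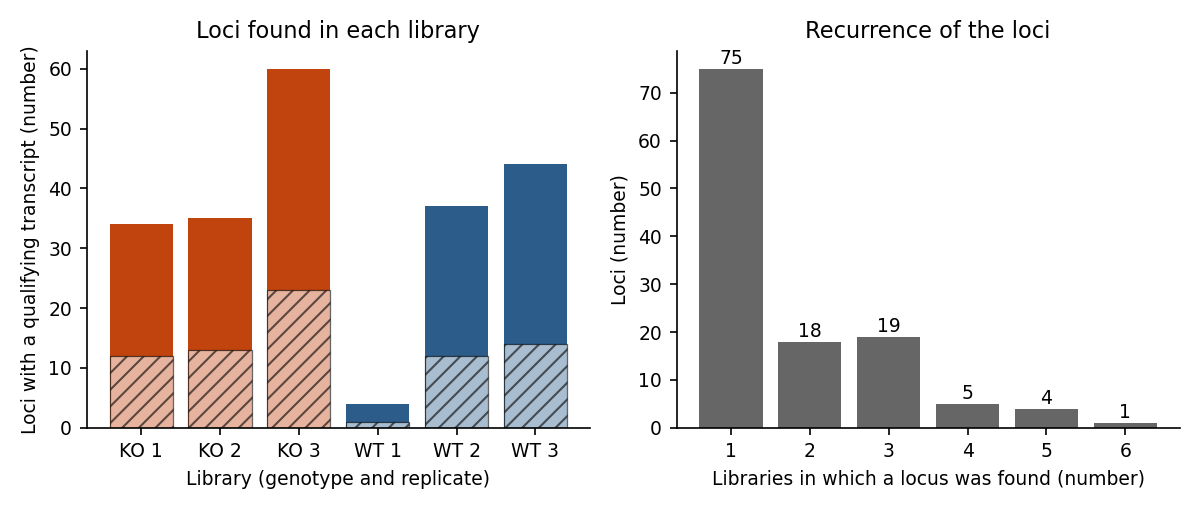
Left, number of loci with a qualifying transcript in each library (whole bar, KO orange, WT blue) and the number found only there (hatched). Right, number of libraries in which each of the 122 loci was found. WT replicate 1 held 4 loci, the other libraries 34 to 60, and 75 loci were found in 1 library.

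A library without a qualifying transcript was not always silent at the locus. Transcripts on the strand of the locus, or without an assigned strand, were looked for. In the 518 combinations of locus and library where a locus was not found, nothing was assembled in 264 (51.0%). A single-exon transcript of 300 nt or more lay there in 190 (36.7%), fragments under 300 nt in 35 (6.76%), and a multi-exon transcript that extended into an annotated gene in 29 (5.60%). Among the 75 loci seen once, 20 had nothing assembled in the other 5 libraries, and in 10 another library's transcript joined the locus to a gene. Of the 122 loci, 22 were above 0 FPKM in all 6 libraries.

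Splice junctions recurred at loci seen more than once. Among the 47 loci found in 2 or more libraries, 43 had an intron with identical ends in at least 2 of them, and so did all 10 loci found in 4 or more. In 6 of those 10 at least 1 intron was assembled in every library where the locus was found. Of the 75 loci seen once, 7 had their intron in a transcript of another library that did not qualify. Over all loci there were 180 distinct introns, of 69 to 117706 nt (median 1569.5), and 74 of them occurred in 2 or more libraries.

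The loci were short and simple. The longest transcript of a locus had a median of 820 nt (313 to 8028), and the genomic span a median of 3619.5 nt (442 to 118123). In 100 loci no transcript had more than 2 exons, while 14 reached 3 exons, 6 reached 4 and 2 reached 5. Loci found more often had more exonic sequence, with a median of 688 nt when found in 1 library, 1134 nt in 2 or 3 and 2896 nt in 4 or more. A locus merged from more libraries can only grow, so this order is a description and was not tested. The loci lay on all 20 chromosomes considered (1 to 19 and X), 56 on the plus and 66 on the minus strand, with 12 on X and 10 each on 4 and 17.

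Levels were low. The level of a locus in a library used all transcripts of 300 nt or more on its strand or without an assigned strand. Their FPKM was summed at each exonic base and averaged over the exonic bases of the locus. A level of 0 means that no such transcript was assembled. The mean over the 6 libraries had a median of 0.361 FPKM (0.0491 to 1722), and 18 of 122 loci reached 1 FPKM. The median was 0.239 FPKM for loci found in 1 library, 0.438 in 2 or 3 and 0.894 in 4 or more.

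Many loci lay close to genes, though no distance or orientation expected of intergenic sequence was worked out for comparison. The nearest gene was a median of 3761.5 nt away (1 to 100356), within 1 kb for 40 loci, 1 to 5 kb for 30, 5 to 20 kb for 28, 20 to 100 kb for 23 and beyond 100 kb for 1. It was protein coding for 71 of the 122. The largest class by orientation followed a gene's end on the same strand, with 38 loci, 22 of them under 5 kb away. Loci that preceded a gene's start on the opposite strand, the arrangement of divergent promoters, numbered 34, of which 22 were under 5 kb away. Another 28 preceded a start on the same strand (14 under 5 kb), and 22 followed an end on the opposite strand (12 under 5 kb). Among divergent loci, 3 examples chosen after their values were seen were L56, 67 nt from Pcdh11x, L68, 1326 nt from Pcdh17, and L85, 80 nt from Slitrk5. Pcdh11x and Pcdh17 encode protocadherins, which are cell adhesion proteins, and Slitrk5 a synaptic adhesion protein. No class of neighbouring genes was tested. L56 and L68 were found in 3 libraries each and L85 in 1. Their means were 0.378, 0.323 and 0.222 FPKM, and L56 was at 0.300 to 0.584 FPKM in 5 libraries but at 0 in WT replicate 1.

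**Figure D2:**
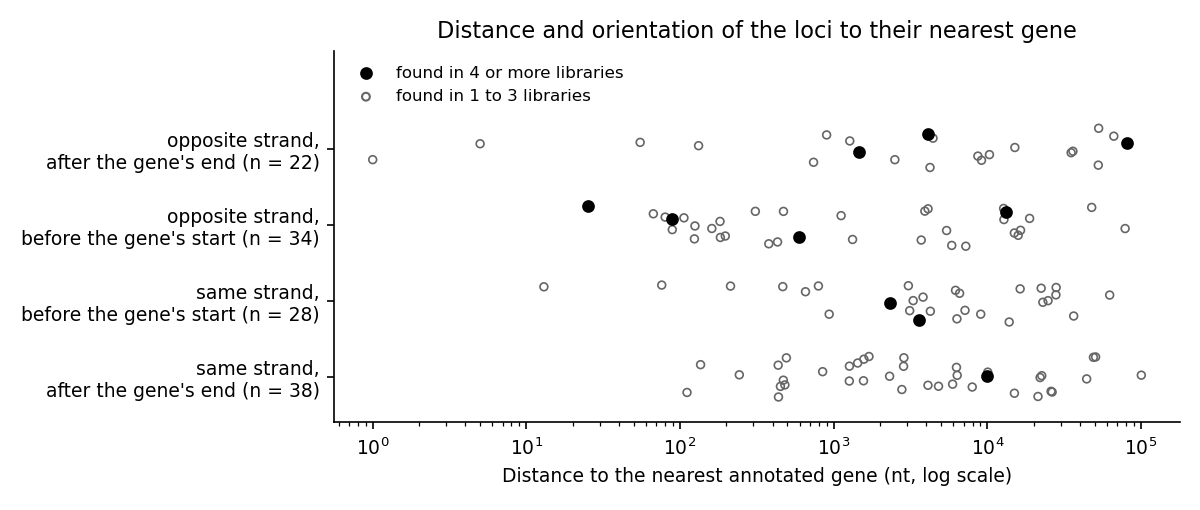
Distance from each of the 122 loci to its nearest annotated gene (nt, log scale), split by strand and by the side of the gene on which the locus lay. Each point is a locus, filled where it was found in 4 or more libraries. Distances ran from 1 to 100356 nt, and the 10 recurrent loci were spread over all 4 arrangements.

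RefSeq had a gene at most of these places. Of the 122 loci, 75 (61.5%) overlapped a RefSeq gene. At 53 of them a RefSeq gene was known to be on the same strand. At the rest it was on the opposite strand, as at L6 and L21, or its strand was not known. By recurrence the loci with a RefSeq overlap on either strand were 43 of 75 found in 1 library, 23 of 37 in 2 or 3 and 9 of 10 in 4 or more. The RefSeq genes were only of the lncRNA type at 46 loci, and a protein-coding gene was among them at 25. No RefSeq miRNA hairpin lay in a locus. The 47 loci without a RefSeq gene included 1 of the 10 recurrent ones.

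The 10 loci found in 4 or more libraries are numbered L1 to L10 by mean level and are all described here. Values run from KO replicates 1 to 3 and then WT replicates 1 to 3. Differences are KO minus WT on the log2(FPKM + 1) scale with their standard error (SE), which understates the change of low levels. They come from a limma fit of all 12357 features (12347 annotated genes at a mean of 1 FPKM or more, and these 10 loci), with p-values adjusted over all of them by the Benjamini-Hochberg method.

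L1, at chr17:34996704-35000396 on the minus strand, was the only locus found in all 6 libraries and the highest of the 10. It lay 590 nt before the start of Vars, which encodes the valine tRNA synthetase and runs the other way. Its single intron of 697 nt (34999470 to 35000166) was assembled in 6 of 6 libraries, and it overlapped the RefSeq gene D17H6S56E-5, classed as protein coding, over its whole span. L1 was at 17.2, 23.7 and 22.6 FPKM in KO and at 18.6, 22.0 and 20.9 FPKM in WT. The genotypes overlapped, with a KO library both lowest and highest, and the log2 difference was 0.03 ± 0.15 (SE) with a 95% interval of ±0.37 around it. Without WT replicate 1 it was -0.03. Vars itself was at 49.1 to 54.9 FPKM in KO and 46.2 to 51.8 in WT, a log2 difference of 0.08 ± 0.10.

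L2, at chr17:21679961-21687845 on the plus strand, had up to 4 exons and an intron of 1394 nt shared by all 5 libraries where it was found. GENCODE places the processed pseudogene Gm10509 2334 nt after it on the same strand, and the RefSeq gene Gm10509, classed as protein coding, covers it wholly. It was at 2.13, 3.58 and 2.58 FPKM in KO and at 0, 1.75 and 2.59 FPKM in WT. Nothing was assembled in WT replicate 1, while WT replicate 3 lay among the KO libraries. The log2 difference was 0.79 ± 0.50, and 0.24 ± 0.23 without WT replicate 1.

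L3, at chr16:72027622-72145744 on the plus strand, was the widest and the farthest from a GENCODE gene, 80638 nt from 8030451O07Rik and 148392 nt from Gm49667. It joined a pair of exons with at most 413 nt of sequence across an intron of 117706 nt, and the ends of that intron were identical in the 4 libraries where it was found. RefSeq places it inside Robo1, the receptor for Slit proteins in axon guidance, on the same strand. L3 was at 2.41, 2.16 and 0 FPKM in KO and at 0, 2.92 and 3.46 FPKM in WT. WT replicates 2 and 3 were above KO replicates 1 and 2, and 1 library of each genotype was at 0. KO replicate 3 held only fragments under 300 nt there. The log2 difference of -0.23 ± 0.75 had the widest interval of the 10, ±1.83. It was -0.92 ± 0.59 without WT replicate 1 and 0.34 ± 0.71 without KO replicate 3.

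L4, at chr4:11175846-11185263 on the minus strand, had the most exonic sequence, 8417 nt, and the longest transcript, 8028 nt in WT replicate 3. It lay between Trp53inp1, a stress-response gene induced by p53, 1466 nt away, and Ccne2, which encodes cyclin E2, 6087 nt away, both on the other strand. The RefSeq lncRNA gene A630034I12Rik overlapped 98.8% of its span. It was at 0.889, 0.627 and 1.14 FPKM in KO and at 0.801, 1.27 and 0.980 FPKM in WT, with the genotypes mixed and a log2 difference of -0.10 ± 0.21. Without WT replicate 1 the difference was -0.18 ± 0.19. When fragments under 300 nt were counted too, it was -4.30 ± 3.45 (limma adjusted p = 0.999). Ccne2 was at 5.13 to 9.50 FPKM in KO and 10.0 to 11.9 FPKM in WT without overlap, a log2 difference of -0.61 ± 0.22 that did not pass adjustment by limma (adjusted p = 0.9999).

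L5, at chrX:95960557-95968769 on the minus strand, was the recurrent locus without any RefSeq gene. It preceded Las1l, a gene of ribosome biogenesis on the same strand, by 3594 nt, and Msn, which encodes the cytoskeletal linker moesin, lay 127272 nt away on the other side. Transcripts had up to 5 exons. Introns of 97, 1817 and 2202 nt were each assembled with identical ends in all 5 libraries where it was found, and another of 706 nt in 3. An alternative first exon, spliced over 3212 nt in KO replicate 3 and 3352 nt in WT replicate 2, occurred once in each genotype. L5 was at 0.983, 1.15 and 0.872 FPKM in KO and at 0.746, 0.807 and 1.05 FPKM in WT, where WT replicate 1 held single-exon transcripts only. The ranges overlapped, with a log2 difference of 0.10 ± 0.19, and 0.053 ± 0.16 without WT replicate 1. Las1l was at 20.8 to 26.5 FPKM over the 6 libraries.

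**Figure D3:**
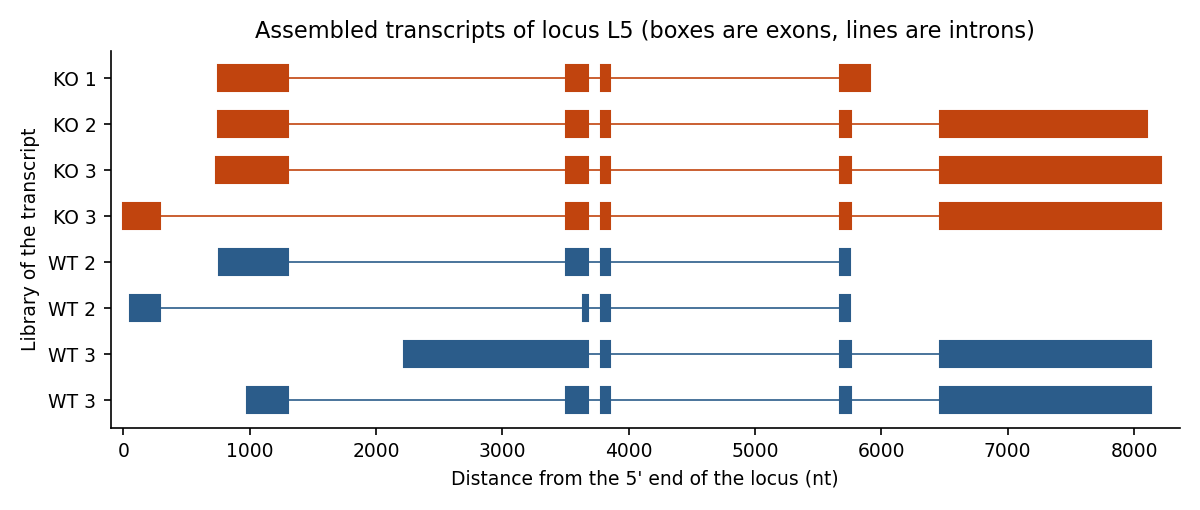
Qualifying transcripts assembled at L5 in 5 libraries (KO orange, WT blue), drawn 5′ to 3′ by distance from the 5′ end of the locus in nt, with exons as boxes and introns as lines. The internal junctions of the 97, 1817 and 2202 nt introns coincide between libraries, while the outer ends and the number of exons (up to 5) differ.

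L6, at chr1:182020080-182029825 on the plus strand, started 89 nt before Enah, which encodes a regulator of actin filaments of the Ena/VASP family and runs the other way. RefSeq extends Enah over 76.7% of the span of L6 on the opposite strand. Its intron of 9009 nt was identical in the 4 libraries where it was found. L6 was at 1.22, 1.03 and 1.23 FPKM in KO and at 1.63, 0 and 0 FPKM in WT. It was thus present in all 3 KO libraries, highest in WT replicate 1, and nothing was assembled in WT replicates 2 and 3. The log2 difference was 0.64 ± 0.42 over 6 libraries. Without WT replicate 1 it was 1.11 ± 0.16 (limma unadjusted p = 0.00101, adjusted p = 0.518), and without both replicate 1 libraries 1.09 ± 0.13 (limma adjusted p = 0.336). Enah was at 16.0 to 17.5 FPKM in every library, with a log2 difference of -0.00040 ± 0.091.

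L7, at chr1:151240237-151250841 on the minus strand, followed the small nuclear RNA gene Gm24402 by 9982 nt on the same strand and overlapped the RefSeq lncRNA gene Gm46162. Its introns varied, and each of the 3 occurred in 2 libraries. L7 was at 0.766, 0.730 and 1.24 FPKM in KO and at 0.179, 0.681 and 0.759 FPKM in WT. WT replicate 1 was lowest and held a single-exon transcript over 9.35% of the locus, and WT replicate 3 lay above KO replicate 2. Between libraries of the same number KO was higher in 3 of 3. The log2 difference was 0.33 ± 0.26, and 0.33 ± 0.19 in the fit with the replicate block (limma adjusted p = 0.813). Without WT replicate 1 it was 0.14 ± 0.19.

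L8, at chr17:36291871-36318755 on the plus strand, lay 4102 nt from H2-M10.1 and 5380 nt from H2-M10.2, nonclassical class I genes of the major histocompatibility complex, inside the RefSeq lncRNA gene Gm33257. An intron of 2637 nt was found in all 4 libraries with the locus. It was at 0.778, 0.806 and 0.750 FPKM in KO and at 0.558, 0.626 and 0.374 FPKM in WT. Every KO library was above every WT library, by a log2 difference of 0.23 ± 0.20 that did not pass (limma unadjusted p = 0.286, adjusted p = 0.9999). The assembled part differed, from 52.2% to 90.7% of the locus in KO and from 23.5% to 62.0% in WT. Averaged over the assembled bases alone the log2 difference was -0.04, and without WT replicate 1 it was 0.25 ± 0.17. H2-M10.1 was listed at 0 in every library and H2-M10.2 at 0 to 0.273 FPKM.

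L9, at chr8:89057380-89071283 on the plus strand, lay 13217 nt before Sall1, a zinc finger transcription factor of neural and kidney development, in the divergent direction, and overlapped the RefSeq lncRNA gene Gm3134 over 98.1% of its span. Its most frequent intron, of 11695 nt, was found in 5 libraries, and in WT replicate 3 it belonged to a transcript that reached Sall1 and so did not qualify. L9 was at 0.772, 0.941 and 0.920 FPKM in KO and at 0, 0.553 and 0.687 FPKM in WT. Here too every KO library was above every WT library, and the log2 difference of 0.44 ± 0.27 did not pass (limma unadjusted p = 0.152, adjusted p = 0.9999). WT replicate 1 held only fragments under 300 nt at L9, and without it the difference was 0.21 ± 0.16. Sall1 was at 16.5 to 19.2 FPKM in KO and 14.7 to 18.4 FPKM in WT, a log2 difference of 0.15 ± 0.13.

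L10, at chr4:89294679-89297616 on the plus strand, started 25 nt before Cdkn2a, which encodes tumour suppressors that halt the cell cycle, in the divergent direction. It overlapped the RefSeq lncRNA gene Gm12610 over 82.9% of its span, and its intron of 1355 nt was identical in 3 libraries, while KO replicate 2 used a donor that left 1047 nt. L10 was at 0, 0.342 and 0.803 FPKM in KO and at 0, 0.881 and 0.566 FPKM in WT. Nothing was assembled in either replicate 1 library, the genotypes overlapped, and the log2 difference was -0.09 ± 0.36, or -0.35 ± 0.30 without WT replicate 1. Cdkn2a was at 0.722 to 1.02 FPKM in KO and 0.759 to 0.981 FPKM in WT.

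**Figure D4:**
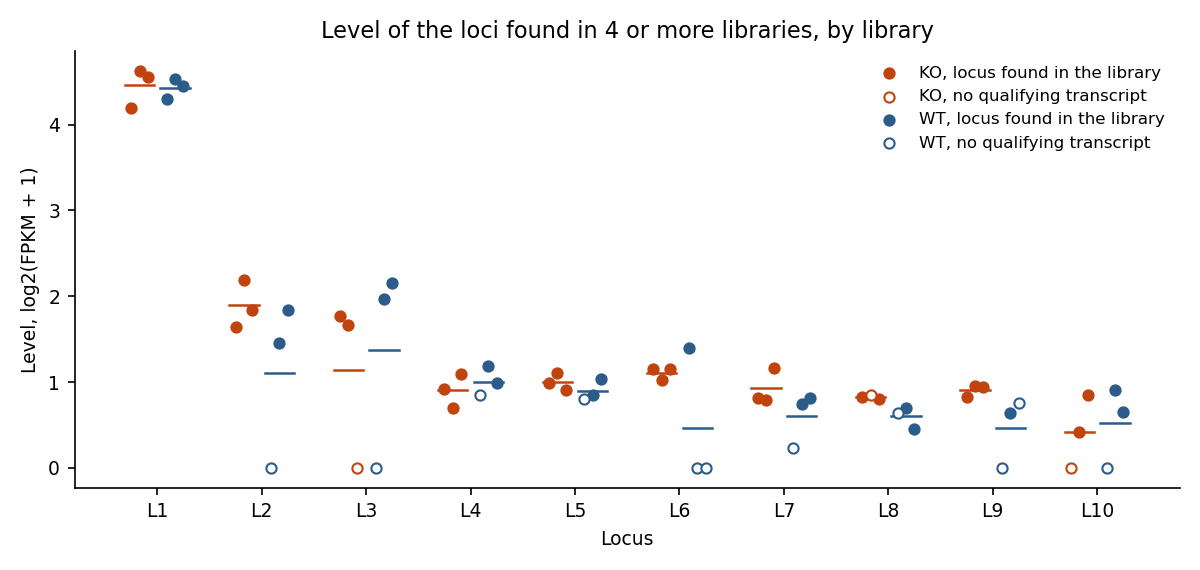
Level of each of the 10 recurrent loci in each library, as log2(FPKM + 1), with KO in orange, WT in blue and a bar at the mean of 3 libraries. Open points are libraries without a qualifying transcript. At L8 and L9 the KO points lie above the WT points, and WT replicate 1, the leftmost blue point, is at 0 for L2, L3, L9 and L10.

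No recurrent locus passed the test between the genotypes. Of the 10, limma called 0 higher and 0 lower in KO at an adjusted p of 0.05, against 0.00809% (1) and 0.0162% (2) of all 12357 features. An unadjusted limma p under 0.05 was reached by 0 of the 10, beside 182 of the 12357 features. The adjusted p was 0.9999 at each. The log2 difference was above 0 at 7 of 10 loci, beside 48.8% of all features. Their median difference was 0.17, beside -0.0048 over all features. KO lay above WT without overlap at 2 of 10 (L8 and L9) and below WT at 0 of 10, beside 2.09% and 3.01% of all features. With so few loci these counts were not compared further. WT replicate 1 was the lowest library at L9 and not at L8.

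**Figure D5:**
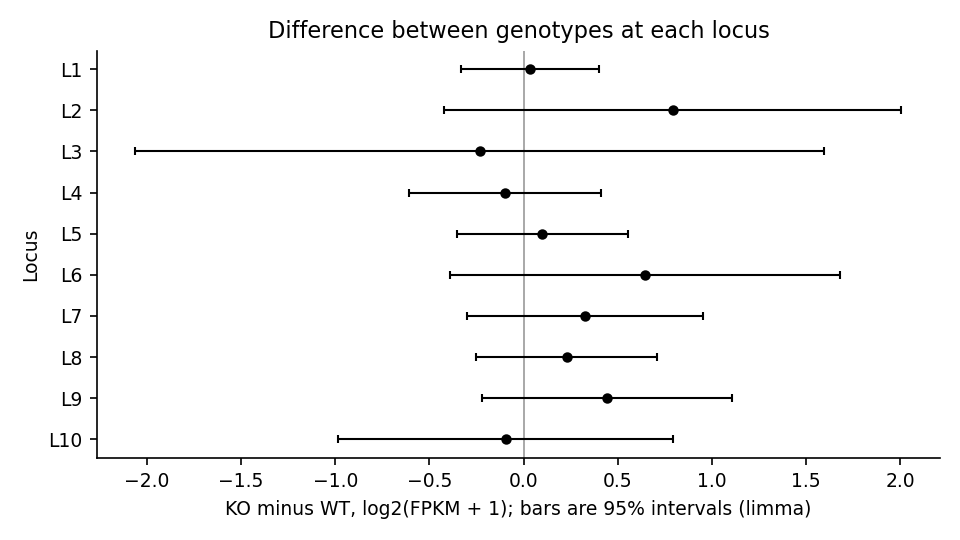
KO minus WT difference of each recurrent locus on the log2(FPKM + 1) scale (points) with its 95% interval from limma (bars). All 10 intervals include 0, and they are widest at L3, L2 and L6, each of which was at 0 in at least 1 library.

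As a class the 10 loci were lower in WT replicate 1 than elsewhere. Their median log2(FPKM + 1) was 0.95, 0.99 and 1.02 in the KO libraries, and 0.44, 0.88 and 0.90 in the WT libraries, each by replicate number. Every KO library was above every WT library, most narrowly KO replicate 1 (0.95) over WT replicate 3 (0.90). The group means of these medians differed by 0.25, while those of the same median over all features differed by 0.0021. This is a description with no test, since the loci were chosen by being assembled and the level also depends on assembly. Of the 10, 6 were found in more KO than WT libraries, 4 in equal numbers and 0 in more WT libraries. Without WT replicate 1 the difference was 0.096. Over the assembled bases alone it was -0.05, and with the highest transcript of each locus -0.01. A level averaged over all exonic bases falls where less of a locus was assembled, and the part played by assembled extent was not tested apart from these values.

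The loci lay below annotated lncRNA genes picked by a similar but looser rule. A gene counted with any multi-exon transcript on its strand over its own exonic bases, also one that reached another gene. Gene levels were averaged over annotated exons, and locus levels over assembled ones. The part of these differences in the comparison was not tested. For 289 GENCODE lncRNA genes with a multi-exon transcript of 300 nt or more in at least 4 libraries, the median was 1.16, 1.55 and 1.50 FPKM in KO and 0.978, 1.47 and 1.41 FPKM in WT. For the 10 loci it was 0.936, 0.987 and 1.03 FPKM in KO and 0.369, 0.844 and 0.870 FPKM in WT. The loci were lower in 6 of 6 libraries, by a mean of 0.36 on the log2(FPKM + 1) scale (mean difference -0.36). With 2 or more libraries required, 47 loci against 510 genes, the mean difference was -0.18, again lower in 6 of 6. The 6 libraries measure the same loci, so this comparison speaks of these loci and not of others.

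Loci confined to 1 genotype were mostly loci seen once. Qualifying transcripts came from KO libraries alone at 55 loci and from WT libraries alone at 28, and none of them was found in all 3 libraries of its genotype. In 7 of the 55 at least 2 KO libraries held the locus (L16, L30, L31, L37, L61, L75 and L117), and in 1 of the 28 it was WT replicates 2 and 3 (L84). These 8 were chosen after their values were seen and were not tested. At 6 of them transcripts that did not qualify were assembled in the other genotype. L31, after the end of Zfp239, a zinc finger gene, was at 1.11, 0.787 and 0.990 FPKM in KO and at 0.898, 0.749 and 0.353 FPKM in WT, with single-exon transcripts in all 3 WT libraries. L30, which started 125 nt from Slc6a8, the creatine transporter gene, in the divergent direction, was at 1.48, 1.41 and 0.999 FPKM in KO and at 0, 0 and 1.02 FPKM in WT. L84 was at 0.141, 0.0065 and 0.225 FPKM in KO and at 0, 0.397 and 0.589 FPKM in WT. For L37 and L117 nothing was assembled in any WT library or in KO replicate 2. Those loci were at 2.85 and 0.945 FPKM, and at 0.299 and 0.178 FPKM, in KO replicates 1 and 3.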

How the data were processed

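RNA-seq of 6 libraries was used, 3 labelled KO and 3 labelled WT, whose titles number them. The tools were Cufflinks 2.2.1, TopHat2 2.1.1, Cuffdiff 2.2.1 and FastQC, on mm10, per the submitters' processing notes. Each library has its own deposited assembly of transcripts, in which the authors' tool lists a coverage and an FPKM for every transcript beside its exons. Read counts were not used, so only a relative depth is known (0.760 to 1) and counting intervals are not given. Whether the libraries kept strand is not stated in these sources. A transcript's strand is that of the assembly, and reads of overlapping opposite genes, or of near-identical copies, may be split between them. Transcripts assembled without a strand counted toward the levels of loci and genes on both strands.

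Gene bodies came from GENCODE M21 on the same build, all gene types, with 5 scaffolds joined by accession. Promoters, further gene overlaps and miRNA hairpins came from the RefSeq tables (GRCm38.p6). Levels of annotated genes were computed like those of the loci, over at least 200 exonic bases that no other gene shares (47691 genes). The test was limma 3.58.1 in R 4.3.3 on log2(FPKM + 1), two-sided, empirical Bayes with a trend, genotype as the only term, threshold 0.05. Tables were made with Python 3.11.15, numpy 2.4.6, pandas 2.3.3 and scipy 1.17.1. Loci named by rule were the 10 highest in mean level among those found in 4 or more libraries, which is all of them, and any other named locus was chosen after its values were seen. The loci, the marker lists and the rules were chosen with earlier results of these data known.

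KO and WT libraries of the same number shared part of their deviation from the genotype means (r across features 0.177 to 0.340, against -0.268 to 0.0028 for other combinations). The titles' numbers were therefore taken to pair the libraries in the replicate block and sign-flip alternatives only. The main fit and the permutation test of 3 against 3 did not use the pairing. With the block the SE was smaller at every recurrent locus but L3, from 0.151 to 0.079 at L1, and rose from 0.747 to 0.846 at L3. The identifiers of both replicate 1 libraries carry the number 3 and those of the others 4, and its meaning is not given. On simulated data for KO against WT with 12357 features and 200 changed, 58% of the features changed by 1 log2 unit and 76% of those changed by 2 were recovered, with 12 false calls. The changed features were drawn only from those with a mean log2(FPKM + 1) above 2. Of the recurrent loci only L1 was above that level, so these shares do not cover L2 to L10. Alternatives covered the exon, length, distance and level minimums, the RefSeq overlap, merging, pseudocounts, locus values, scaling, the block, array weights, robust estimation and left-out libraries.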

Additional observations from a re-analysis of the deposited data

How the results depend on the processing

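The number of loci rested on the rule. Settings were applied to transcripts before merging, so a locus counts if any of its transcripts passes, and these counts differ from those by the span of the merged locus. It was 122, and 22 with 3 or more exons, 58 at least 5 kb from every gene, 48 without RefSeq overlap and 58 with transcripts at 1 FPKM or more. Leaving out 1 library gave 99 to 121. Loci found in 4 or more libraries numbered 10, and 2, 3, 1 and 5 under those same settings, 6 without both replicate 1 libraries, 6 to 9 with 1 library left out (6 without any KO library or WT replicate 2), and 16 when scaffold names were not joined, an alternative added after seeing the data that counts genes on scaffolds as absent. The KO minus WT difference in loci per library was 14.7, and -0.667 with 3 or more exons (exact permutation p = 1). It was 2.5 to 22 with 1 library left out, lowest without WT replicate 1.

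Under each of 23 alternatives 0 loci were called higher and 0 lower. The replicate block left 0 calls, with a smallest adjusted p of 0.813 (limma), and for loci per library an exact sign-flip permutation p of 0.5 at the same difference of 14.7. No call on a locus changed with the block. Over all features limma called 0 higher and 0 lower with the block, against 1 and 2 without it. The class median (0.25) turned to -0.049 over assembled bases and -0.011 with the highest transcript, and was 0.096 to 0.326 with 1 library left out, lowest without WT replicate 1. L2, L6, L7 and L9 kept their sign in every alternative run, but L2, L7 and L9 fell to 0.242, 0.144 and 0.213 without WT replicate 1. With 1 library left out L1 ranged from -0.051 to 0.169 (below 0 without KO replicate 2, KO replicate 3 or WT replicate 1), L3 from -0.920 to 0.340 (above 0 without KO replicate 3, WT replicate 2 or WT replicate 3), L4 from -0.195 to 0.0015 (above 0 without KO replicate 2) and L10 from -0.355 to 0.118 (above 0 without KO replicate 1 or WT replicate 2). With the highest transcript L1 was -0.140, L5 -0.453, L8 -0.011 and L10 0.067. Over assembled bases L5 was -0.272 and L8 -0.036. Without a length minimum L3 was 1.29, L4 -4.30, L5 -0.053 and L8 -0.089. L5 was -0.181 with summed transcripts and -0.028 with quantile normalization, and L10 0.023 over bases exonic in 2 or more libraries. The cause of these turns was not tested. Read depth is unknown, so absence of a locus at these levels says only that no transcript was assembled.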

Other observations

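Beside L1, the loci highest in mean level among all 122 were L11 and L12, each found in 3 libraries or fewer and chosen here after their values were seen. L11 (chr11:109011643-109012084, plus strand), 2861 nt after the end of Gm11668 and inside the RefSeq lncRNA gene Gm36876, reached 2809, 1204 and 1969 FPKM in KO, by replicate number, and 1907, 1205 and 1237 FPKM in WT. The genotypes overlapped, and all 6 libraries covered 100% of its exonic bases. Only WT replicate 3 assembled a multi-exon transcript there, at 293 FPKM, and the others held single-exon transcripts. L12 (chr5:104580582-104582765, plus strand) lay inside the RefSeq gene Zfp33b, a zinc finger gene, 26374 nt after the end of D930016D06Rik in GENCODE. It was at 4.02, 5.76 and 6.93 FPKM in KO and at 5.14, 7.18 and 7.30 FPKM in WT, with up to 3 exons in KO replicate 3 and WT replicates 2 and 3.

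Several loci directly followed a coding gene on its own strand and varied within both genotypes. L14, 492 nt after the end of Cul4a, which encodes a ubiquitin ligase scaffold, was at 0.226, 0 and 7.48 FPKM in KO and at 0, 0.597 and 14.9 FPKM in WT. L15, 481 nt after Fam92a, was at 0.651, 1.24 and 10.8 FPKM in KO and at 0, 1.40 and 0.973 FPKM in WT. L23, 1432 nt after Nova2, a splicing factor of neurons, was at 0.178, 0.273 and 3.11 FPKM in KO and at 1.42, 0.469 and 2.15 FPKM in WT. L17, 470 nt after Srd5a2 in GENCODE and overlapped over 17.5% of its span by the RefSeq gene, was at 1.41 to 3.22 FPKM in KO and 1.93 to 2.37 FPKM in WT. None of these 4 separated the genotypes. L14 and L15 had a qualifying transcript only in WT replicate 2, and L17 and L23 only in KO replicate 3. The intron of L14 was also assembled in KO replicate 3 and WT replicate 3, in transcripts that did not qualify. The same held for L15 in KO replicate 3 and for L23 in WT replicate 1. Levels count transcripts of 300 nt or more whether or not they qualified. The share of those that did not qualify in these values was not tested.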
